A study of Mus musculus with 6 samples.

Results

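Sphingosine-1-phosphate (S1P) receptors and enzymes were followed in mouse sarcoma cells sorted from tumours after silencing of Postn, the gene of the secreted matrix protein periostin. The family comprised 8 genes, found by symbol among the 35727 genes of the deposited table: the receptors S1pr1, S1pr2 and S1pr3, the kinases Sphk1 and Sphk2, the lyase Sgpl1, the phosphatase Sgpp1 and the exporter Spns2. All 8 had reads, and 7 passed the filter on low counts; Spns2 did not. The genes were chosen by their pathway role with the deposited counts of shPostn and shSCR, and the differences between these groups, already known. Their differences are therefore given as descriptions with a standard error (SE) and no p-value. Whether a member passed the test run over all genes is likewise given only as a description.

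S1P is a lipid that cells make by phosphorylating sphingosine, the backbone released when ceramide is broken down. The kinases SPHK1 and SPHK2 make it, SGPP1 returns it to sphingosine, and the lyase SGPL1 cleaves it irreversibly in the endoplasmic reticulum. Exported S1P acts on G protein-coupled receptors: S1PR1 signals through Gi, while S1PR2 and S1PR3 also couple to Gq and to G12/13. The system is best known for lymphocyte egress and vascular integrity, and mesenchymal cells also carry these receptors.

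The 3 shPostn libraries carried a viral hairpin RNA against Postn and the 3 shSCR libraries a scrambled hairpin. Both groups came from the line p53 KO Ccne1 OE, mesenchymal stem cells of female C57/Bl6 mice lacking p53 with a retroviral Ccne1 and red fluorescent protein (RFP), passaged in vivo before the hairpin was added, so the p53 deletion, Ccne1 and RFP were shared. Titles name the groups Postn-KO and Postn-WT, whereas the protocol describes hairpins in 1 line each. Tumours were grown in mice and RFP+ cells were sorted; whether each library had its own tumour is not stated in the labels, so p-values measure a spread between these samples that may be technical.

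Library totals were 19603269 to 19931734 counts in shPostn and 19847860 to 20376554 in shSCR. Postn measured 217, 471 and 639 CPM (each count divided by its library's normalised size) in shPostn, against 4097, 3602 and 3225 CPM in shSCR. Of 7 mesenchymal genes, Col1a1, Col1a2, Col3a1, Pdgfra, Prrx1 and Vim were abundant in every library, the lowest value being 118 CPM for Pdgfra, while Thy1 was 0.257 to 1.55 CPM in shPostn and 0.761 to 3.89 CPM in shSCR. The summed level of 7 pan-leukocyte markers was 50.1, 21.8 and 272 CPM in shPostn against 67.7, 49.1 and 33.0 CPM in shSCR, and that of 9 macrophage markers 103, 45.6 and 950 CPM against 194, 139 and 61.6 CPM. The shPostn replicate 3 library thus stood apart from the other 5 in leukocyte RNA. In bulk RNA, fewer cells of a type and less RNA per cell cannot be told apart.

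Of the 7 filtered members, 1 rose (Sgpp1) and 1 fell (S1pr3) at an edgeR adjusted p under 0.05, where 10.1% of 12819 genes tested were called, 4.61% as higher and 5.53% as lower. No overlap between the groups' libraries was seen for 4 of the 7, S1pr3, Sphk1, Sgpl1 and Sgpp1, against 33.6% of all genes tested. Nothing is read from these counts, since the same comparison was known when the genes were chosen. The median log2 fold change of the 7 was 0.13, and that of all genes tested 0.01.

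**Figure D1:**
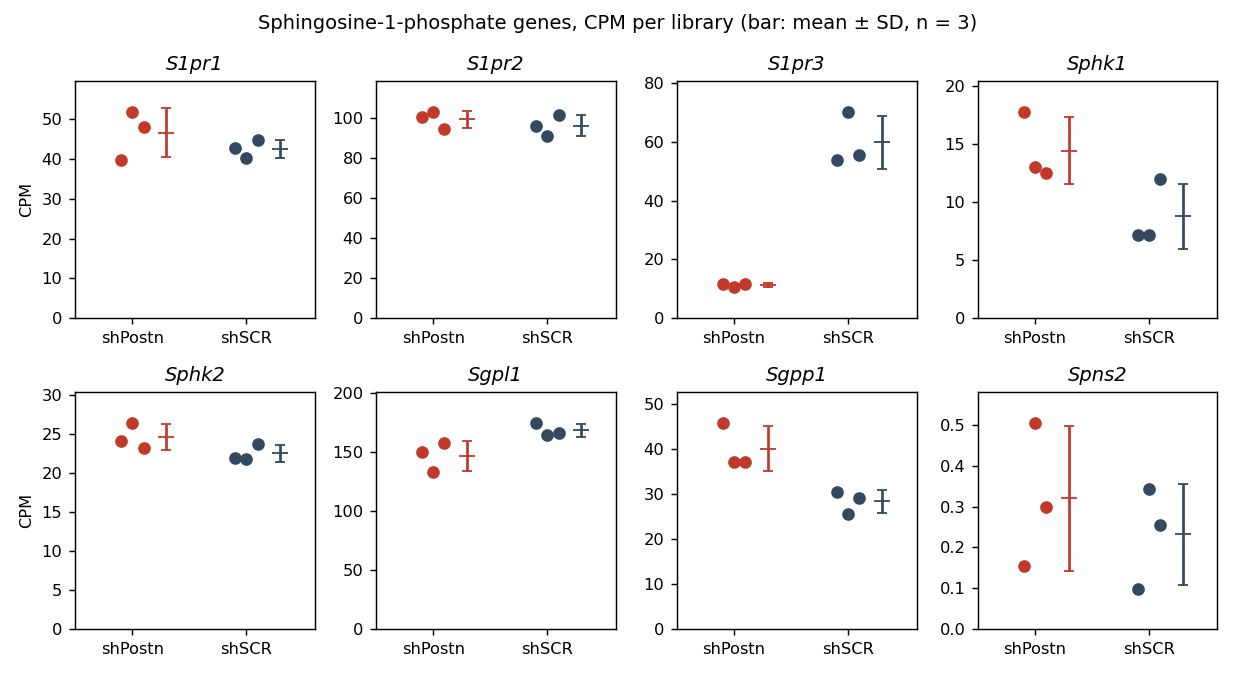
CPM of each of the 8 genes in the 3 shPostn (left, red) and 3 shSCR (right, dark) libraries, with the mean ± SD beside the points. S1pr3 lies between 10.7 and 11.8 CPM in shPostn and between 53.9 and 70.2 CPM in shSCR, and S1pr1 and S1pr2 overlap between the groups.

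S1pr3 had the largest difference of the family. This receptor gene (ENSMUSG00000067586; GRCm38 chromosome 13, 51408639 to 51422797, plus strand) measured 11.8, 10.7 and 11.5 CPM in shPostn, from 230, 212 and 230 counts, against 53.9, 70.2 and 55.4 CPM in shSCR, from 1096, 1436 and 1091 counts. The highest shPostn library lay well below the lowest shSCR library. It averaged 11.3 ± 0.558 CPM in shPostn and 59.8 ± 8.99 CPM in shSCR (SD, n = 3 each). The log2 fold change was −2.40 (SE 0.12), a level 5.28-fold lower in shPostn. It ranked at place 109 from the lowest of the 12819 log2 fold changes. With any 1 library left out the log2 fold change was between −2.47 and −2.27.

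S1pr1 and S1pr2 had no such difference. S1pr1, the Gi-coupled receptor of endothelium and lymphocytes (chromosome 3, 115710433 to 115715072, minus strand), measured 39.8, 51.8 and 48.1 CPM in shPostn and 42.7, 40.2 and 44.8 CPM in shSCR. The groups overlapped, with a log2 fold change of 0.13 (SE 0.10). S1pr2, the receptor that signals most through G12/13 (chromosome 9, 20962361 to 20976781, minus strand), measured 101, 103 and 94.7 CPM in shPostn and 96.3, 91.2 and 102 CPM in shSCR. Its groups also overlapped, with a log2 fold change of 0.05 (SE 0.07).

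The promoter windows of 3 genes are shown, S1pr3 and Sgpp1 as the 2 members past the threshold and S1pr2 as the receptor gene with the most reads and no difference. Each window holds 250 bases before and 50 from the RefSeq start on GRCm38.p6, read 5′ to 3′ on the gene's strand, and capitals mark matches to the motifs named below.
S1pr3: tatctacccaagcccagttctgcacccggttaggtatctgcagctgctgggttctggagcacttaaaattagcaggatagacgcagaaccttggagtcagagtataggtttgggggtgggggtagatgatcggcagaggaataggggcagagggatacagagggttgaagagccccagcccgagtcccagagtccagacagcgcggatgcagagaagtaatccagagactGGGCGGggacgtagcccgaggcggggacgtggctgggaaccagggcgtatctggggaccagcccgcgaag
S1pr2: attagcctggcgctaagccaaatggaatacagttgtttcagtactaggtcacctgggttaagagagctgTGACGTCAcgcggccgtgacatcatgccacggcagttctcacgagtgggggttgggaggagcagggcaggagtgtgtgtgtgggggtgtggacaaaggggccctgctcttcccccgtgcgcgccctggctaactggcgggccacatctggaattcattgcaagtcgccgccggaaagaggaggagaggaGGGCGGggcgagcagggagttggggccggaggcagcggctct
Sgpp1: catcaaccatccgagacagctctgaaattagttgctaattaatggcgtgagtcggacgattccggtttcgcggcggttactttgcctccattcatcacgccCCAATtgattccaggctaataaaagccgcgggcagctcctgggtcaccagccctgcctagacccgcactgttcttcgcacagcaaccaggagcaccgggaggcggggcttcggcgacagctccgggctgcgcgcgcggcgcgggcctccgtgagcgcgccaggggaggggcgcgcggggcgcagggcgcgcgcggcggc
The windows are chr13:51408368-51408667 (plus strand), chr9:20976744-20977043 (minus) and chr12:75735680-75735979 (minus). The motifs searched on both strands were the GC box (GGGCGG), the CCAAT box (CCAAT), the TATA box (TATAAA), AP-1 site (TGANTCA), TEAD site (CATTCC), E-box (CACGTG) and cyclic AMP response element (TGACGTCA). No matches overlapped.

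The S1pr3 window held 1 GC box, starting at −20 with the transcript start at 0, and none of the other 6 motifs. That of S1pr2 held 1 GC box, at 8, and 1 cyclic AMP response element, at −181. That of Sgpp1 held 1 CCAAT box, at −149. Among all 32851 RefSeq windows of this length, 35.7% held the GC box, 37.4% the CCAAT box and 1.79% the cyclic AMP response element. The AP-1 site was in 7.81%, the TEAD site in 14.7%, the E-box in 7.15% and the TATA box in 13.6%. The GC content was 59.0% for S1pr3, 62.0% for S1pr2 and 66.0% for Sgpp1, against a median of 52.7% over all windows. Windows were found for 7 of the 8 genes, all but S1pr1.

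Set on a common scale, CPM per kilobase of annotated exon, the 3 receptor genes had nearly equal levels in shSCR and unequal ones in shPostn. S1pr3 averaged 2.54 ± 0.125 CPM per kilobase in shPostn and 13.4 ± 2.01 in shSCR (SD, n = 3 each), S1pr1 15.3 ± 2.01 and 14.0 ± 0.765, and S1pr2 12.5 ± 0.543 and 12.1 ± 0.653. S1pr3 therefore made up 9.33%, 7.42% and 8.52% of the summed receptor level in shPostn, against 31.7%, 39.0% and 31.1% in shSCR. S1pr1 made up 50.3 ± 3.61% in shPostn and 35.4 ± 2.38% in shSCR, and S1pr2 41.3 ± 2.84% and 30.7 ± 2.00%. The summed level of the 3 was 28.3, 32.4 and 30.2 CPM per kilobase in shPostn, below the 38.2, 40.4 and 39.9 of shSCR. The remaining receptor genes of the family, S1pr4 and S1pr5, stayed under 1 CPM in every library.

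**Figure D2:**
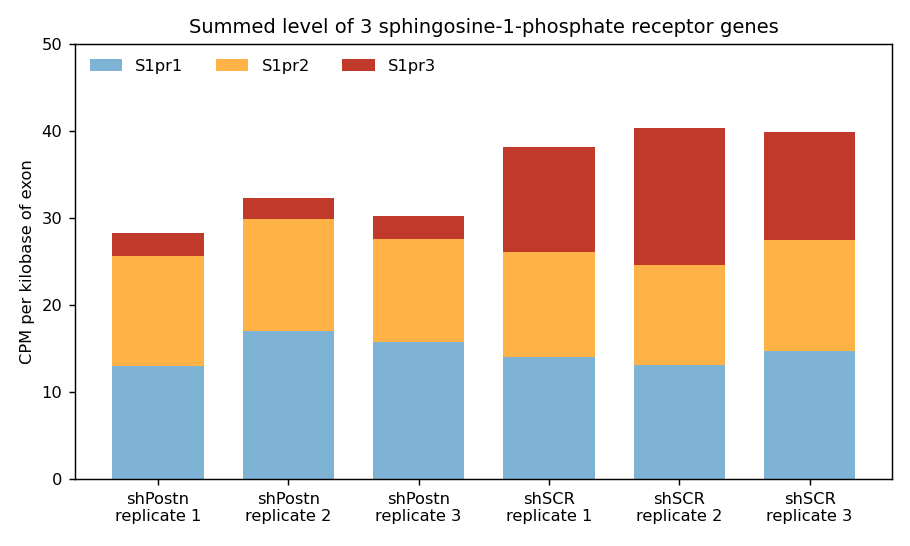
Stacked bars give the level of S1pr1, S1pr2 and S1pr3 in CPM per kilobase of exon in each library, shPostn to the left of shSCR. The S1pr3 segment is 2.40 to 2.64 in shPostn and 12.1 to 15.7 in shSCR, while the S1pr1 and S1pr2 segments have like heights in all 6.

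The kinase genes differed in how far the groups were apart. Sphk1, the cytosolic kinase that growth factors and cytokines induce (chromosome 11, 116530925 to 116536674, plus strand), measured 17.8, 13.0 and 12.5 CPM in shPostn and 7.13, 7.18 and 12.0 CPM in shSCR. Every shPostn library was above every shSCR library, though shSCR replicate 3 came close to the lower shPostn values. Sphk1 averaged 14.4 ± 2.89 CPM in shPostn and 8.77 ± 2.78 CPM in shSCR (SD, n = 3 each). Its log2 fold change of 0.72 (SE 0.25) did not pass the test; leaving out shSCR replicate 3 gave 1.01 and leaving out shPostn replicate 1 gave 0.54, with no call in either. Sphk2, which also acts in the nucleus and mitochondria (chromosome 7, 45709467 to 45718002, minus strand), measured 24.1, 26.4 and 23.2 CPM in shPostn and 21.9, 21.8 and 23.8 CPM in shSCR, and its groups overlapped (log2 fold change 0.13, SE 0.08). Sphk2 lies across parts of Rpl18 and Dbp, which are on the opposite strand, and the strand setting of the counting is not given in the sources used here. Per kilobase, Sphk1 made up 39.1%, 30.0% and 32.0% of the level of both kinases in shPostn and 22.1%, 22.3% and 30.5% in shSCR, ranges that overlapped.

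The enzymes that remove S1P had opposite signs. Sgpl1, the lyase gene (chromosome 10, 61098642 to 61147703, minus strand), measured 150, 133 and 158 CPM in shPostn and 175, 164 and 167 CPM in shSCR. The groups did not overlap, but the distance was small, with a log2 fold change of −0.20 (SE 0.08) that did not pass the test. With the pan-leukocyte mean as a covariate it was −0.24. Sgpp1, the phosphatase gene (chromosome 12, 75714249 to 75735729, minus strand), measured 45.8, 37.1 and 37.0 CPM in shPostn and 30.5, 25.5 and 29.1 CPM in shSCR. All shPostn libraries were above all shSCR libraries. Sgpp1 averaged 40.0 ± 5.03 CPM in shPostn and 28.3 ± 2.58 CPM in shSCR (SD, n = 3 each), and the log2 fold change was 0.50 (SE 0.11).

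On chromosome 12, which holds Sgpp1, the median log2 fold change was 0.39. The 10 tested genes within 1 Mb of Sgpp1 had a median of 0.41, from −0.14 (Akap5) to 0.50 (Ppp2r5e), and 3 of them rose. With chromosome medians taken out, the log2 fold change of Sgpp1 was 0.11 and did not pass. Its log2 fold change was 0.39 without shPostn replicate 1 and 0.55 without shPostn replicate 2. Without shSCR replicate 1, 2 or 3 it was 0.55, 0.42 and 0.52. In none of these fits was Sgpp1 called, which is given as a description. For S1pr3, the chromosome 13 median was −0.00195. The 6 tested genes within 1 Mb had log2 fold changes between −0.12 (Spin1) and 0.77 (Sema4d, SE 0.83). The 1 that passed the test, Secisbp2, rose (0.44, edgeR adjusted p = 0.0333). The chromosome medians of the other members lay between −0.06 and 0.08. Whether chromosome shifts had a part in the values of Sgpp1 or S1pr3 was not tested.

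**Figure D3:**
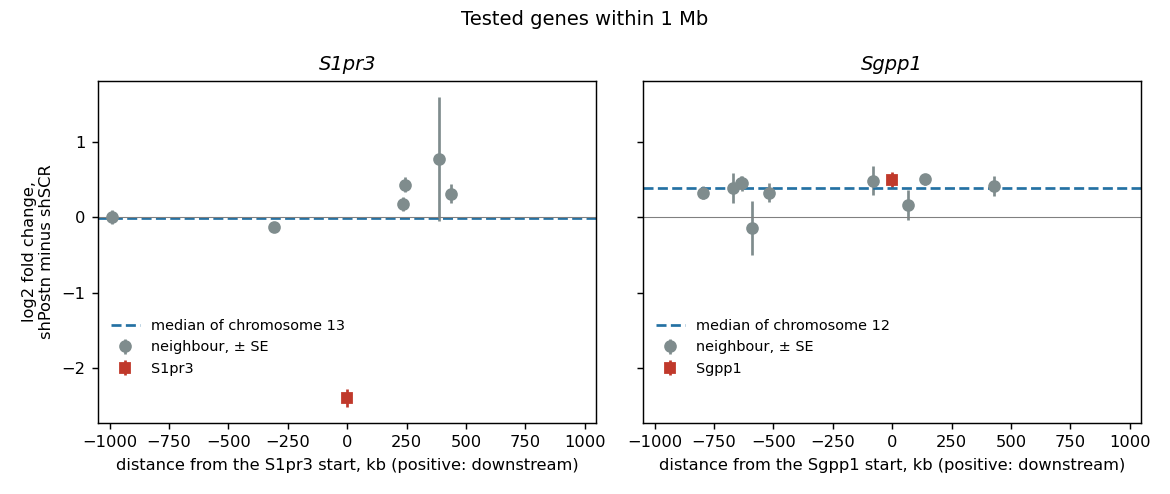
Log2 fold changes (shPostn minus shSCR, ± SE) of the tested genes within 1 Mb of S1pr3 and of Sgpp1, by distance between gene starts in kilobases, with the chromosome median as a dashed line. S1pr3, at −2.40, lies far below its 6 neighbours, while Sgpp1, at 0.50, lies among its 10 neighbours near the chromosome median of 0.39.

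Spns2, the transporter that releases S1P from endothelial cells (chromosome 11, 72451638 to 72489904, minus strand), was close to the limit of detection. It had 3, 10 and 6 counts in the shPostn libraries and 2, 7 and 5 in the shSCR libraries. The sums were 19 against 14, a depth-scaled ratio of 1.38 with a 95% Clopper-Pearson interval of 0.658 to 2.98 that covers counting error only. No difference was detectable at this depth. The gene overlaps Mybbp1a, which is on the opposite strand. Mfsd2b, the exporter of red cells and platelets, averaged 1.96 ± 0.498 CPM in shPostn and 1.12 ± 0.224 CPM in shSCR (SD, n = 3 each). Its log2 fold change was 0.80 (SE 0.31, edgeR adjusted p = 0.153). Mfsd2b lies on chromosome 12, whose median log2 fold change was 0.39.

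The order of the members per kilobase was led by Sgpl1 in both groups, at 23.9 ± 2.06 CPM per kilobase in shPostn and 27.5 ± 0.918 in shSCR (SD, n = 3 each). In shPostn it was followed by S1pr1, S1pr2, Sgpp1, Sphk2, Sphk1, S1pr3 and Spns2, and of the 7 neighbouring pairs in this order only Sphk1 and S1pr3 had overlapping libraries. In shSCR the order after Sgpl1 was S1pr1, S1pr3, S1pr2, Sphk2, Sgpp1, Sphk1 and Spns2. There S1pr1 and S1pr3 overlapped, as did S1pr3 and S1pr2, and Sphk2 and Sgpp1. S1pr3 thus held place 7 in shPostn and place 3 in shSCR; with longest transcripts in place of merged exons it held places 7 and 4, and 3 of the 8 genes kept their place in both groups. The summed kinase level per unit of lyase was 0.390, 0.419 and 0.319 in shPostn and 0.237, 0.252 and 0.303 in shSCR, which did not overlap. That of Sgpp1 was 0.332, 0.303 and 0.255 in shPostn and 0.189, 0.168 and 0.190 in shSCR, again without overlap. Nothing is read from the lack of overlap in either ratio, since this comparison was known when the genes were chosen. Of all single genes tested, 33.6% showed no overlap either. Sgpp1 lies on chromosome 12, whose median log2 fold change was 0.39.

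**Figure D4:**
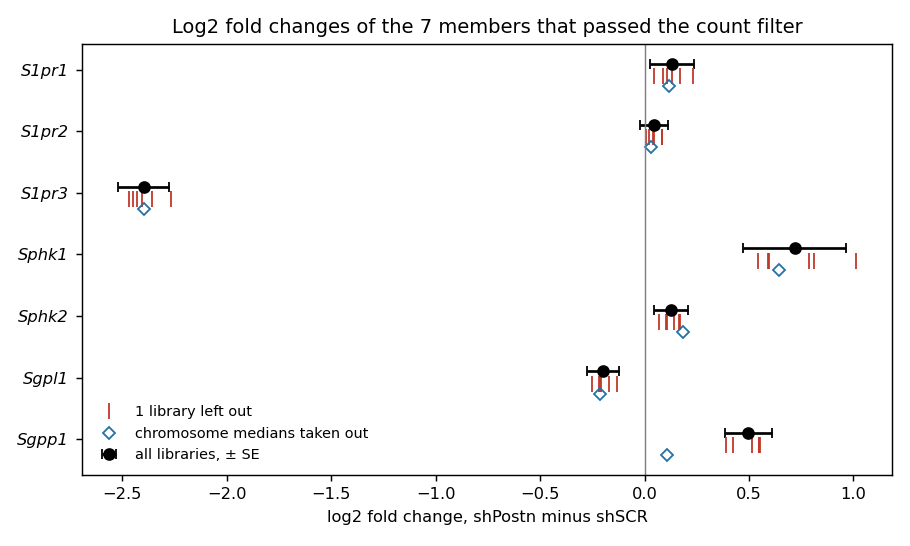
Log2 fold changes (shPostn minus shSCR) of the 7 filtered genes, with all libraries (black, ± SE), with 1 library left out (red ticks) and with chromosome medians taken out (blue diamonds). S1pr3 stays between −2.47 and −2.27, and Sgpp1 goes to 0.11 once the chromosome median is removed.

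The S1P system was also read through 90 other genes in 6 lists, counting a comparison list of 7 lysophosphatidic acid genes. Of the 90, 71 passed the filter, 5 of them from the comparison list, where 0 were called. Of the 71, 8 rose, 3 fell and 60 did not pass the test, which is 15.5% called against 10.1% of all genes tested. The median log2 fold change was 0.05. The number called of these genes was 18 without shPostn replicate 3, 5 without shPostn replicate 1, 2 without shPostn replicate 2 and 1 without any one of the 3 shSCR libraries. It was 3 with chromosome medians taken out. The calls over all genes, 1300 in the main fit, moved as well. They were 2220, 943 and 637 without shPostn replicate 3, 1 and 2, and 429, 307 and 404 without shSCR replicate 1, 2 and 3. With chromosome medians taken out they were 655. These lists were written with earlier results on other genes of these data known.

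Among other receptors, carriers and phosphatases, 8 of 12 genes were tested, and 1 rose and 1 fell. Plpp3, which encodes a cell surface phosphatase that dephosphorylates S1P and lysophosphatidic acid outside the cell, measured 112, 108 and 169 CPM in shPostn and 36.3, 41.0 and 37.9 CPM in shSCR. All 3 shPostn libraries were far above all shSCR libraries, and shPostn replicate 3, the library high in leukocyte markers, was highest. The log2 fold change was 1.76 (SE 0.18, edgeR adjusted p = 0.00556), 1.52 without shPostn replicate 3, and leaving out any 1 library did not end the call. Plpp2, a related phosphatase gene, fell to 22.5 ± 2.42 CPM in shPostn, against 30.3 ± 0.447 CPM in shSCR (n = 3 each; log2 fold change −0.43, SE 0.09, edgeR adjusted p = 0.0309; adjusted p = 0.114 without shSCR replicate 2). The efflux pump gene Abca1 measured 229 ± 68.5 CPM in shPostn and 137 ± 13.5 CPM in shSCR and did not pass (log2 fold change 0.74, SE 0.21, edgeR adjusted p = 0.0809). The intracellular phosphatase gene Sgpp2 and the plasma carrier gene Apom stayed under 1 CPM.

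Genes upstream of sphingosine came in a pair of lists. Of 17 ceramide synthesis genes 12 were tested and 0 passed the edgeR test, while DESeq2 called 2, both higher in shPostn. Over all 12819 genes tested DESeq2 called 1973. The edgeR p before adjustment was under 0.05 for 2 of the 12, against 3458 of all 12819 genes tested. Sptlc2 (log2 fold change 0.26, edgeR adjusted p = 0.0529) and Sptssa (0.70, adjusted p = 0.0656) had the lowest adjusted p of the list. Both lie on chromosome 12, whose median log2 fold change was 0.39. The most abundant, the ceramide synthase gene Cers2, averaged 265 ± 31.5 CPM in shPostn and 282 ± 3.96 CPM in shSCR (n = 3 each; log2 fold change −0.09, SE 0.09). Of 20 genes of sphingosine release and ceramide turnover 16 were tested, 2 rose and 1 fell. The ceramide transfer protein gene Col4a3bp rose (0.33, SE 0.06, edgeR adjusted p = 0.0160; 0.0819 without shSCR replicate 2), as did the galactosylceramidase gene Galc (0.47, SE 0.08, adjusted p = 0.0170). Galc lies on chromosome 12 and had a log2 fold change of 0.08 with chromosome medians taken out. Samd8, a ceramide phosphoethanolamine synthase gene, fell (−0.51, SE 0.13, edgeR adjusted p = 0.0473; 0.142 without shSCR replicate 1). The acid ceramidase gene Asah1, which frees sphingosine in lysosomes, averaged 228 ± 16.9 CPM in shPostn and 199 ± 21.1 CPM in shSCR (n = 3 each; log2 fold change 0.20, SE 0.10, edgeR adjusted p = 0.238).

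Downstream of the lyase, whose products are phosphoethanolamine and a fatty aldehyde, 7 of 9 genes were tested, 2 rose and 5 did not pass. Pcyt2, of phosphatidylethanolamine synthesis, had a log2 fold change of 0.40 (SE 0.09, edgeR adjusted p = 0.0302). Hacd1, a fatty acid elongation dehydratase gene, had one of 0.53 (SE 0.13, adjusted p = 0.0411). Leaving out shSCR replicate 2 gave adjusted p-values of 0.131 for Pcyt2 and 0.137 for Hacd1. The aldehyde dehydrogenase gene Aldh3a2, which oxidises the lyase's aldehyde, had a log2 fold change of −0.01 (SE 0.06, adjusted p = 0.943).

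Of 25 genes for receptor-coupled G proteins, their downstream regulators and desensitisation 23 were tested, 3 rose and 1 fell. Rgs16, a GTPase activator that shortens Gi and Gq signals, measured 88.0, 41.8 and 40.6 CPM in shPostn and 18.3, 7.13 and 11.0 CPM in shSCR. The groups did not overlap, and shPostn replicate 1 was high. The log2 fold change was 2.22 (SE 0.48, edgeR adjusted p = 0.0468) and the call was lost with any 1 library left out, at adjusted p values up to 0.157 without shSCR replicate 3. The GTPase gene Rhoc rose (0.32, SE 0.07, adjusted p = 0.0297; 0.113 without shSCR replicate 2). The kinase genes Rock1 and Rock2 had opposite signs: Rock2, on chromosome 12, rose (0.38, SE 0.09, adjusted p = 0.0438) and Rock1, on chromosome 18, fell (−0.30, SE 0.07, adjusted p = 0.0326), and with chromosome medians taken out the values were −0.00439 for Rock2 and 0.15 for Rock1. The alpha subunit genes that S1P receptors use, Gnai2, Gnai3, Gnaq, Gna11, Gna12 and Gna13, had log2 fold changes between −0.03 and 0.17, with edgeR adjusted p-values of at least 0.106.

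The receptors of lysophosphatidic acid, the lipid most like S1P, gave a point of comparison. Of 7 genes, autotaxin (Enpp2) included, 5 were tested and 0 passed the edgeR test, with 0 at an unadjusted p under 0.05 and 0 called by DESeq2. Of all 12819 genes tested 10.1% passed the edgeR test, 3458 had an unadjusted p under 0.05 and DESeq2 called 1973. With only 5 genes, 0 cannot be told from these shares. Lpar1, the most abundant, averaged 98.5 ± 8.55 CPM in shPostn and 89.8 ± 5.83 CPM in shSCR (n = 3 each; log2 fold change 0.13, SE 0.08).

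**Figure D5:**
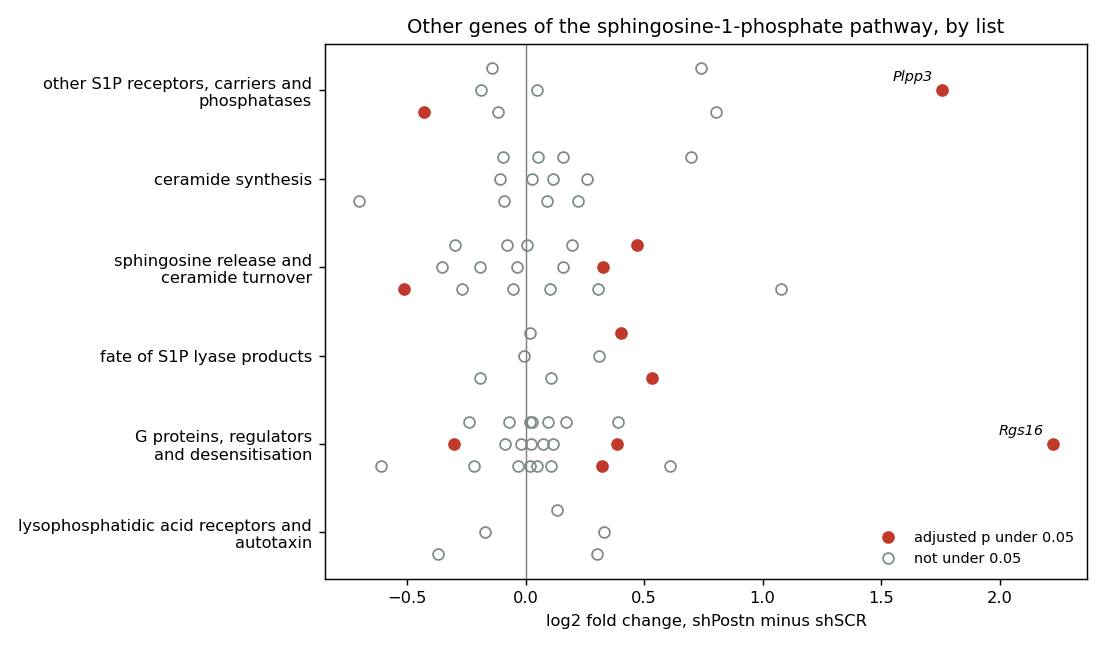
Log2 fold changes (shPostn minus shSCR) of the 71 tested pathway genes in 6 lists; filled points passed the edgeR test at an adjusted p under 0.05. Plpp3, at 1.76, and Rgs16, at 2.22, are farthest to the right, and the other 9 called genes lie between −0.51 and 0.53.

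Markers of other cells that carry S1P receptors were also measured. The summed level of 10 endothelial markers was 1.80 to 7.74 CPM in shPostn and 3.25 to 5.23 CPM in shSCR, with 8 of the 10 under 1 CPM in every library, against 39.8 to 51.8 and 40.2 to 44.8 CPM for S1pr1 alone. These values are not scaled for gene length, and which cells gave the S1pr1 reads was not tested. The lymphatic markers Prox1, with 0 counts, Lyve1 and Flt4 were under 1 CPM, and Pdpn, which fibroblasts also express, was 83.0 to 116 CPM in shPostn and 122 to 167 CPM in shSCR, without overlap. The 8 T and natural killer cell markers summed to 1.92 to 3.35 CPM in shPostn and 1.71 to 3.15 CPM in shSCR, and 4 B cell markers to 0.910 to 1.95 and 0.761 to 1.53 CPM. S1pr3 in shPostn replicate 3, where leukocyte markers were high, was 11.5 CPM, between the values of the other shPostn libraries.

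The 8 pericyte and smooth muscle markers, cells known for S1pr3, summed to 1091 to 1469 CPM in shPostn and 1104 to 1336 CPM in shSCR. Rgs5, Myh11, Kcnj8 and Abcc9 were under 1 CPM, and Pdgfrb (506 to 758 CPM in shPostn, 718 to 956 in shSCR) and Cspg4 (155 to 256 and 191 to 217 CPM) overlapped between the groups. Notch3 measured 1.23, 2.68 and 6.04 CPM in shPostn and 14.5, 34.9 and 21.4 CPM in shSCR, while Acta2 measured 383, 287 and 549 CPM in shPostn and 181, 180 and 100 CPM in shSCR; both without overlap between the groups, and neither passed the test (edgeR adjusted p = 0.0506 and 0.0557). Notch3 was lower in every shPostn library and highest in shSCR replicate 2, as was S1pr3. Within shPostn their order differed: Notch3 was highest in replicate 3, and S1pr3 (11.8, 10.7 and 11.5 CPM) in replicate 1. Acta2, of the same list, went the other way between the groups. The part of pericytes and smooth muscle cells in the S1pr3 result was not tested. Platelet markers (4) summed to 0.859 to 17.1 CPM in shPostn and 1.07 to 2.51 CPM in shSCR, highest in shPostn replicate 3, and Gp9 had 0 counts.

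The genes whose profile over the 6 libraries was most like that of S1pr3, among 9990 with a mean of at least 5 CPM, were Cdk5rap2 (Pearson r = 0.999), Zfp777 (0.999) and Dnajc15 (0.998), with 305 genes above 0.95. Pearson r disregards size: the log2 fold changes of these 3 were −0.22, −0.25 and −0.97, against −2.40 for S1pr3. For Sphk1 they were Bloc1s6 (0.985), Tlk1 (0.983) and Tsc22d1 (0.983), with 24 above 0.95. The libraries fall into 2 groups and share depth and scaling, so r mostly follows the difference between groups and is given as a description.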

How the data were processed

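RNA sequencing gave 6 libraries, 3 shPostn and 3 shSCR. The deposited table holds estimated counts by Ensembl gene ID; the submitters' processing notes name Salmon and mm10, with neither versions nor annotation given in the sources used here. Libraries were strand-specific, per the labels' protocols. All values were whole numbers. Genes were matched to GENCODE M21 (GRCm38); 35493 of 35727 had a symbol. Members and gene lists were chosen with earlier results of these data known.

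Counts were analysed with edgeR 4.0.16 (limma 3.58.1, R 4.3.3): filterByExpr (minimum count 10), TMM normalisation, a robust quasi-likelihood F-test of shPostn against shSCR without covariates, and Benjamini-Hochberg adjustment over the 12819 genes tested, threshold 0.05. The SE is the size of the log2 fold change over the square root of F. CPM use TMM-scaled library sizes; levels between genes use CPM per kilobase of merged exons. Likeness is Pearson r of log2(CPM + 0.5). Chromosome medians use genes above 4 CPM. Named genes were the 8 members, called list members (at most 4 per list, else the most abundant) and the 3 most alike genes of 2 members. Abca1, Mfsd2b, Sptlc2, Sptssa, Asah1, Aldh3a2, Secisbp2, the G protein genes and single markers were named after their values were seen. Alternatives were other scalings and filters, DESeq2 1.42.0, limma-voom, a replicate block, a leukocyte covariate, chromosome medians taken out and each library left out. Promoter windows come from RefSeq (GRCm38.p6). Figures used Python 3.11.15 and matplotlib 3.10.9.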

Additional observations from a re-analysis of the deposited data

How the results depend on the processing

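Over 16 alternatives the log2 fold change was −2.47 to −2.27 for S1pr3 and 0.11 to 0.55 for Sgpp1; whether members were called is given as a description, since this comparison was known when they were chosen. Plpp3 (1.52 to 1.90) kept direction and call under all 16. Of 12819 genes, 1300 were called; this became 1973 with DESeq2, 2126 with the leukocyte covariate, 655 with chromosome medians taken out and 307 to 2220 with 1 library left out. Pathway genes called, 11, became 17 with DESeq2, 3 with chromosome medians taken out and 1 to 18 with 1 library left out. Members called, 2, became 3 with the leukocyte covariate (Sgpl1 added), 1 with chromosome medians taken out and 1 to 2 with 1 library left out. With chromosome medians taken out Rock1 (0.15, edgeR adjusted p = 0.238) and Rock2 (−0.00439, edgeR adjusted p = 0.986) changed sign and neither was called. With longest transcripts in place of merged exons, the receptor share was 45.7% in shPostn and 32.9% in shSCR for S1pr1, and 46.7% and 35.5% for S1pr2; S1pr2 then ranked above S1pr1. The replicate block called 735 genes and 4 pathway genes and left 2 members called. Same-numbered libraries did not deviate together (r = −0.0719, −0.126 and −0.442). With 3 libraries per group, such deviations from group means cannot decide whether the numbers pair the libraries. Causes were not tested where none is given; without 1 library there are fewer samples. Depth limits Spns2, S1pr4, S1pr5 and Sgpp2.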
